A study of Mus musculus with 24 samples.

Results

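Interferon-stimulated genes, the genes that cells transcribe in response to interferons, were followed in mouse adipose tissue across 3 genotypes of the transcription factor STAT5B and both sexes. A list of 42 such genes was chosen by gene symbol, and all 42 were present among the 24421 gene symbols of the count tables. The tissue came from 2-month-old C57BL/6 mice that were wild type (WT), STAT5B-Y665F or STAT5B-Y665H. In Y665F a tyrosine of STAT5B is replaced by phenylalanine, and in Y665H the same tyrosine is replaced by histidine. With 4 male and 4 female libraries for each genotype there were 6 groups and 24 libraries of total RNA. Neither the fat depot nor whether 1 or both alleles carried the change is given in the sources used here, and no treatment is named. The labels do not say whether the 4 libraries of a group came from separate mice, so p-values measure the spread between these libraries, which may be technical.

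Interferons are secreted proteins that alert cells to viruses and other microbes. Type I interferons such as interferon beta act through the receptor chains Ifnar1 and Ifnar2 and the kinases Jak1 and Tyk2, which activate a complex with Stat2 and Irf9 that binds the interferon-stimulated response element (ISRE). Interferon gamma, made mainly by T cells and natural killer (NK) cells, acts through Ifngr1 and Ifngr2 and leads to binding at the gamma-activated site (GAS). STAT5 proteins, activated by growth hormone and many cytokines, bind DNA with the same core letters as GAS. By role, the members were 23 antiviral effectors, Isg15 with its protease Usp18, 3 interferon regulatory factors, 3 cytoplasmic RNA sensors, 4 guanylate-binding proteins, 4 immunity-related GTPases and 3 genes of antigen processing.

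The letters of both elements were looked for in the 250 bases before the RefSeq start of each gene (build GRCm38.p6, which has the coordinates of mm10), because the members are listed as responding to interferons. A RefSeq window was at hand for 31 of the 42 members, and for Mx1, Mx2, Oas1b, Oas2, Parp9, Parp14, Dhx58, Iigp1, Zbp1, Rtp4 and Usp18 no window was used here. The ISRE letters, GAAA, any 2 bases and GAAA again on either strand, were present in 14 of the 31 members (45.2%) and in 3.46% of 27025 genes with a window. The GAS letters TTCNNNGAA, which read the same on both strands, were present in 11 of the 31 members (35.5%) and in 8.13% of all genes. Both were present in 6 members (19.4%) and in 0.459% of all genes, and in 1 member window the matches overlapped. All 4 guanylate-binding protein genes and all 3 immunity-related GTPase genes with a window held the ISRE letters, whereas none of Irf1, Irf7, Irf9, Psmb8, Psmb9 and Tap1 did. A match describes these letters only and is no measured binding site.

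**Figure D1:**
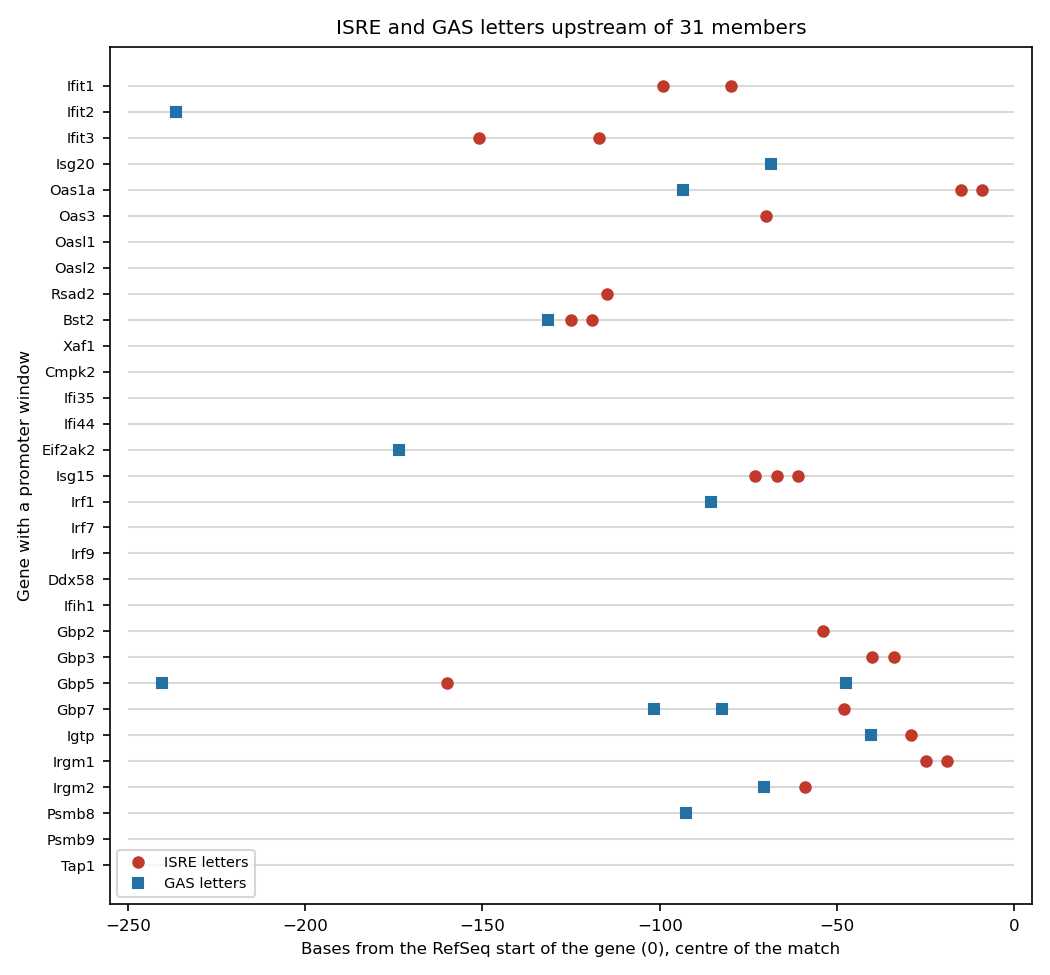
Positions of the ISRE letters (red circles) and GAS letters (blue squares) in the 250 bases before the RefSeq start of 31 members, 1 line per gene and distance in bases on the x axis. ISRE letters appear in 14 genes, among them all 4 Gbp genes, and GAS letters in 11.

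The windows of 6 members that differed in the comparisons are shown 5′ to 3′ on the strand of the gene, with matches in capitals. Isg15 (chr4:156200819-156201068, - strand) held a run of 3 overlapping ISRE matches, Ifit1 (chr19:34640639-34640888, + strand) held 2, and Oas3 (chr5:120777660-120777909, - strand) held 1. Gbp7 (chr3:142530086-142530335, + strand) and Igtp (chr11:58199306-58199555, + strand) held both kinds. The first window of Isg20 (chr7:78913174-78913423, + strand) held GAS letters alone.
Isg15: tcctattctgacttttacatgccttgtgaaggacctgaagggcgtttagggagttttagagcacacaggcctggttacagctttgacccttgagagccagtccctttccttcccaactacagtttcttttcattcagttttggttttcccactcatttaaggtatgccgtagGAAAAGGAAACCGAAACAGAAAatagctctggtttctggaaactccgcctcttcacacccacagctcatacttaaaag
Ifit1: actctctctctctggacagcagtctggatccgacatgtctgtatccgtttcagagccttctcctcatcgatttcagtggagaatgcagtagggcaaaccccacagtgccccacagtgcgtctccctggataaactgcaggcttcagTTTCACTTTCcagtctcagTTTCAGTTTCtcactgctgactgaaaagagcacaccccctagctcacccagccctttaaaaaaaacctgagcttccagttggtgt
Oas3: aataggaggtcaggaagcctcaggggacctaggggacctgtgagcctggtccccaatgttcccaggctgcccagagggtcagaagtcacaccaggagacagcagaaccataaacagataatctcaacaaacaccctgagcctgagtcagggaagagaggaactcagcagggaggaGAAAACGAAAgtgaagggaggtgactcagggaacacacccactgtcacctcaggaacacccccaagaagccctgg
Gbp7: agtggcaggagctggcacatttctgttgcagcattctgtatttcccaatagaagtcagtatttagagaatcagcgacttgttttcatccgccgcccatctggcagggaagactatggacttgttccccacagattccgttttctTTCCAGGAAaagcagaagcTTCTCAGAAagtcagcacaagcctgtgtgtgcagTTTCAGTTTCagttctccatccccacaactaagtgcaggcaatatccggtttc
Igtp: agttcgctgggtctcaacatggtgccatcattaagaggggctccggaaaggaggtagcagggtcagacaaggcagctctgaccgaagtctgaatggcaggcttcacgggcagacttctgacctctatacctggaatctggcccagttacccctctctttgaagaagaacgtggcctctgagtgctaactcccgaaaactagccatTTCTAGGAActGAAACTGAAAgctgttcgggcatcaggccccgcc
Isg20: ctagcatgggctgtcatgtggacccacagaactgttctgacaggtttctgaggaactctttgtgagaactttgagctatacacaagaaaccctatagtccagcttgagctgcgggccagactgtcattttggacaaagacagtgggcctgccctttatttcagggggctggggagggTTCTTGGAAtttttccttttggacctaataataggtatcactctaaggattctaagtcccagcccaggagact

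The depth per library was 20982647 to 41345247 gene counts. CPM stands for the counts of a gene per 1000000 counts over all genes of its library. These totals include the gene Rn45s, which took 3.27 to 15.0% of them. No member was near the limit of detection: the lowest count of any member in any library was 40, for Oas3. The adipocyte hormone gene Adipoq averaged 1039 to 1913 CPM over the 6 groups. Genes of the epididymis, a male reproductive organ that adjoins a fat pad, were also present in some male libraries: the summed level of 10 such genes was 1.30, 14618, 3280 and 1219 CPM in the 4 WT males, 375, 0.502, 0.810 and 963 CPM in the 4 Y665F males and 13.0, 2.03, 1604 and 166 CPM in the 4 Y665H males. It was at most 2.16 CPM in any female. A point mutation cannot be read from gene counts. Stat5b averaged 94.7 to 115 CPM in the 6 groups.

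Per kilobase of exon, the most abundant members in WT females were Bst2, which tethers virus particles at the cell surface, at 34.1 CPM per kb, Gbp2 at 33.2 and Ifit3 at 22.8. The least abundant were Oas3, which makes the 2-5A second messenger on double-stranded RNA, at 0.397 CPM per kb, Mx1 at 0.660 and Ifi44 at 0.755. Among females the Y665F group had the highest mean of the 3 genotypes for 28 of the 42 members, and the Y665H group had the lowest for 32. Among males the Y665F group had the highest mean for 33, and the WT group had the lowest for 30. These orders and the sums below use library totals, and no share over all genes is given for them. On library totals the median log2 fold change over all genes was 0.15 in Y665F against WT females and -0.18 in Y665H against Y665F females. With the TMM scaling of the tests below it was 0.02 and -0.03. Summed over all members, the level was 1004 to 1277 CPM in WT females, 1257 to 1377 in Y665F females and 953 to 1161 in Y665H females. It was 770 to 997 CPM in WT males, 1046 to 1303 in Y665F males and 912 to 1234 in Y665H males. Libraries within a group moved together: WT female 4 had the highest level of its group for 32 members, Y665H female 1 the lowest for 31, and WT male 2 the lowest for 27.

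**Figure D2:**
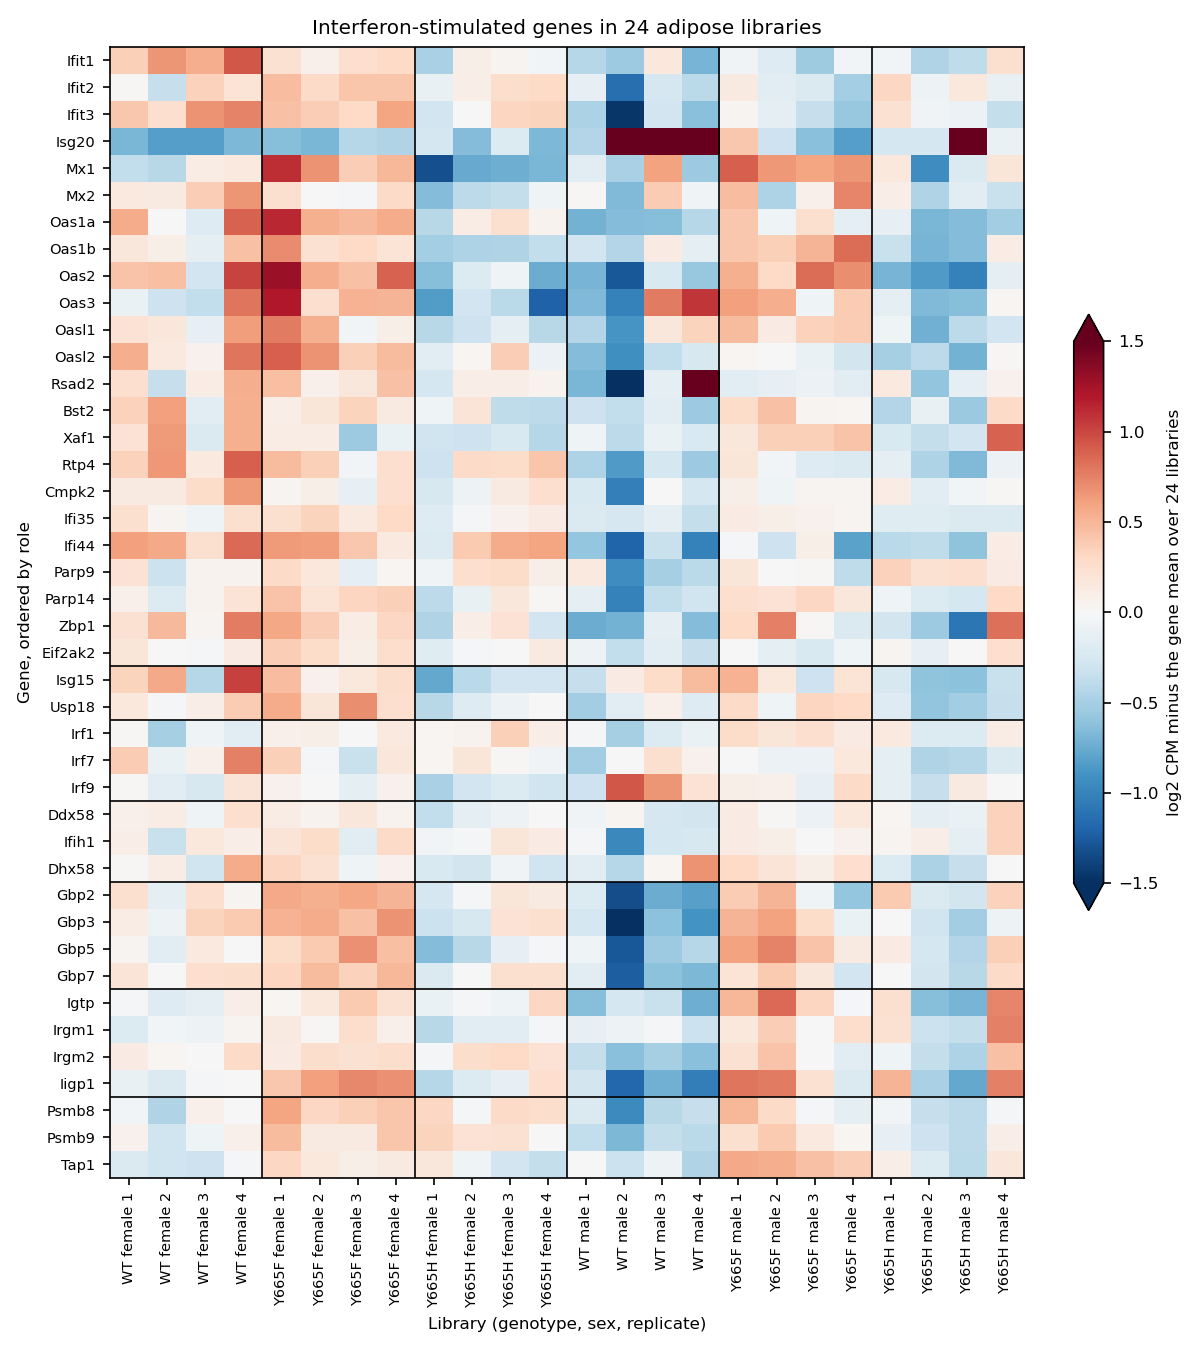
Level of each member (rows, ordered by role) in each of the 24 libraries (columns), as log2 CPM minus the mean of that gene over all libraries, on a colour scale limited to 1.5 in either direction. Isg20 is high in WT males 2, 3 and 4 and in Y665H male 3, and WT male 2 is low for most other members.

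Differences between 2 groups were tested over all genes with edgeR on the 8 libraries of those groups, with Benjamini-Hochberg adjustment over all genes tested, and called means an adjusted p under 0.05. Fold changes are on the log2 scale after TMM scaling. In tissue RNA, fewer cells of a type and less RNA per cell cannot be told apart. The comparisons of 2 groups share groups with each other, so they are given side by side and are not independent.

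In Y665H against Y665F females, 9 members fell and none rose. These 9 of 42 (21.4%) compare with 8.59% of all 15493 genes tested that fell, 8.77% that rose and 17.4% called in either direction. The median log2 fold change over the members was -0.17, against -0.03 over all genes, and 32 of the 42 were negative. They were the antiviral effectors Mx1, Oas1b, Oas2 and Oas3, Isg15 and Usp18, the guanylate-binding protein genes Gbp2 and Gbp5, and the immunity-related GTPase gene Iigp1.

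Mx1 (chr16:97447035-97462907), a gene of the dynamin-like GTPase family, was at 5.82, 4.29, 3.47 and 3.80 CPM in Y665F females and at 1.08, 1.59, 1.62 and 1.68 CPM in Y665H females. All Y665H libraries lay below all Y665F libraries, with Y665F female 1 highest and Y665H female 1 lowest. Its log2 difference was -1.41 ± 0.22 (SE; edgeR adjusted p = 0.00465). Oas2 (chr5:120730333-120749853), an oligoadenylate synthetase that activates RNase L, was at 28.1, 16.7, 15.5 and 21.1 CPM in Y665F females against 7.33, 9.94, 10.9 and 6.82 CPM in Y665H females. The groups did not overlap, and the log2 difference was -1.08 ± 0.23 (SE; edgeR adjusted p = 0.0157). Oas3 (chr5:120753098-120777661), whose window holds the ISRE letters, was at 6.04, 3.13, 3.78 and 3.77 CPM against 1.47, 2.17, 1.99 and 1.14 CPM (-1.16 ± 0.27 log2 units, SE; edgeR adjusted p = 0.0231). Every Y665H female was below every Y665F female for it. Oas1b (chr5:120812635-120824163) was at 5.49, 3.93, 4.16 and 3.87 CPM in Y665F females and within 2.38 to 2.61 CPM in Y665H females (-0.67 ± 0.15 log2 units, SE; edgeR adjusted p = 0.0206). The annotation lists Oas1b, like Mx2, as a polymorphic pseudogene.

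Isg15 (chr4:156199424-156200818), a ubiquitin-like protein that is attached to other proteins, was at 6.70, 5.09, 5.43 and 5.81 CPM in Y665F females and at 2.84, 3.65, 3.98 and 3.98 CPM in Y665H females (-0.53 ± 0.14 log2 units, SE; edgeR adjusted p = 0.0377). Usp18 (chr6:121245906-121270917), which removes Isg15 and damps signalling from the type I receptor, was at 13.6, 10.5, 15.0 and 11.0 CPM against 6.92, 8.10, 8.80 and 9.31 CPM (-0.45 ± 0.13 log2 units, SE; edgeR adjusted p = 0.0485). For both genes the highest Y665H female was below the lowest Y665F female.

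Gbp2 (chr3:142620602-142638008), a GTPase that coats intracellular microbes, was at 115, 113, 117 and 111 CPM in Y665F females and at 65.6, 76.6, 88.0 and 85.2 CPM in Y665H females. The Y665F libraries lay within a narrow range above all Y665H libraries (-0.39 ± 0.08 log2 units, SE; edgeR adjusted p = 0.0120). Gbp5 (chr3:142493978-142522344), which promotes inflammasome assembly, was at 19.9, 21.6, 26.5 and 22.5 CPM against 10.5, 12.4, 15.2 and 16.3 CPM (-0.59 ± 0.13 log2 units, SE; edgeR adjusted p = 0.0190). Iigp1 (chr18:60376027-60392634), which attacks the vacuoles of intracellular parasites, was at 46.2, 53.7, 57.5 and 56.0 CPM against 25.9, 30.4, 32.2 and 41.5 CPM (-0.57 ± 0.12 log2 units, SE; edgeR adjusted p = 0.0167). Neither gene overlapped between the groups. Gbp3 and Gbp7, with log2 fold changes of -0.41 ± 0.13 and -0.20 ± 0.10 (SE), did not pass the test (edgeR adjusted p = 0.0605 and 0.197).

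**Figure D3:**
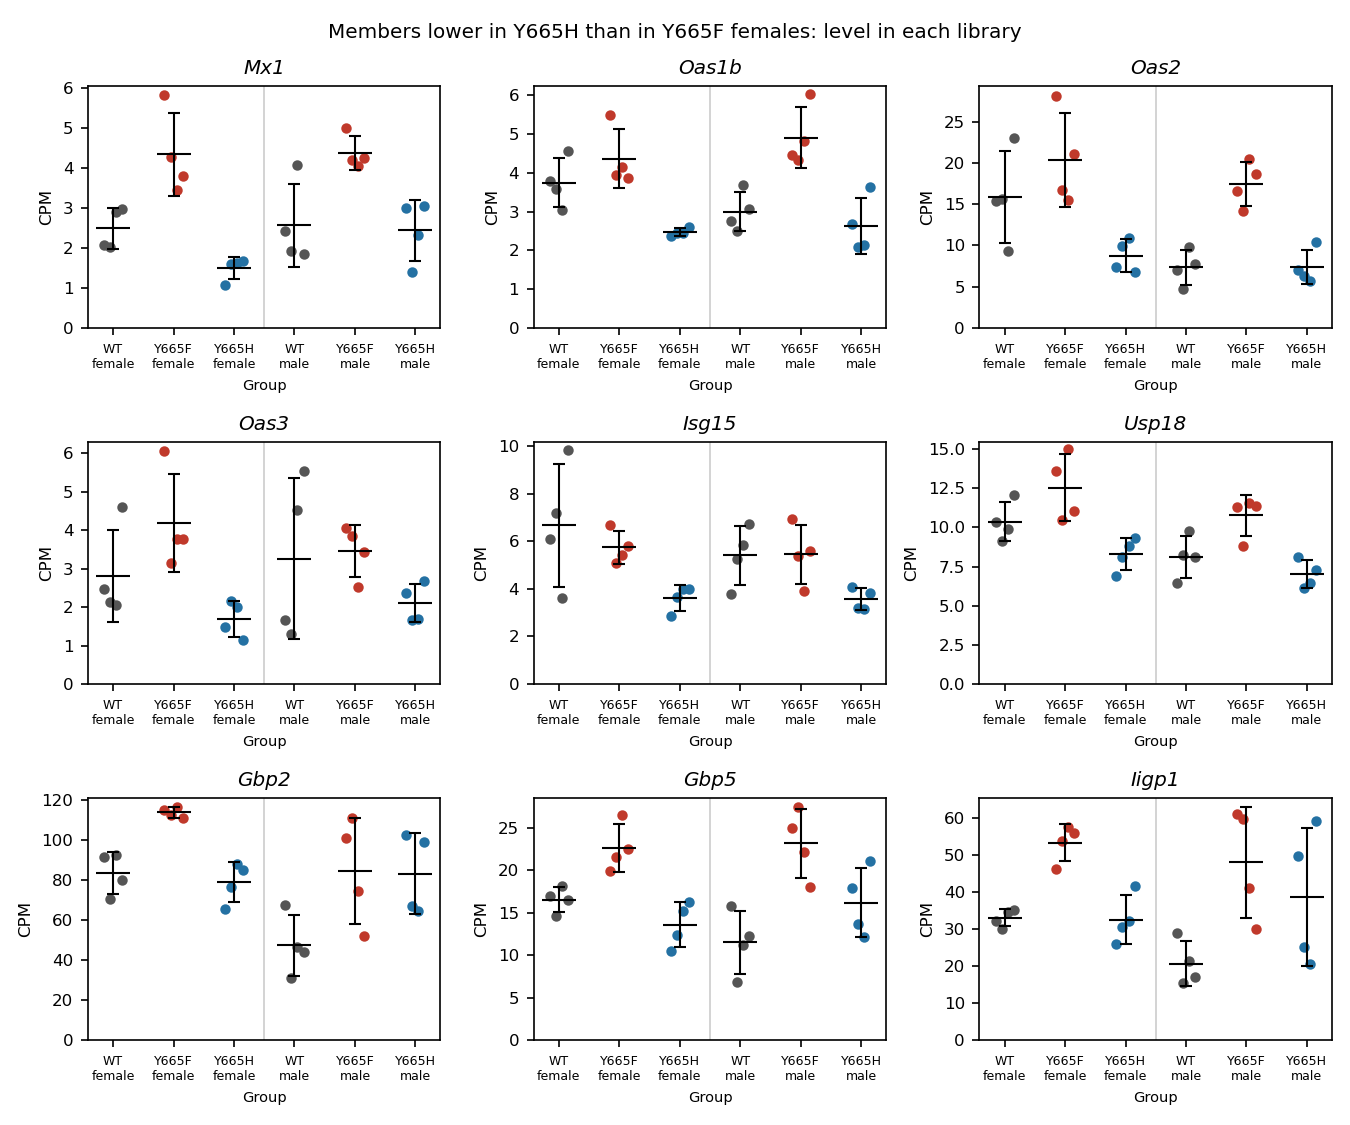
CPM of the 9 members called lower in Y665H than in Y665F females, in each of the 4 libraries of all 6 groups, with the mean (long bar) and SD (error bars). In females the Y665H points lie below all Y665F points in each panel, for instance at 1.08 to 1.68 against 3.47 to 5.82 CPM for Mx1.

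No interferon regulatory factor, RNA sensor or antigen processing gene was called in Y665H against Y665F females. The member of each role with the smallest p was Irf1, a regulator of interferon gamma responses, at 0.21 ± 0.09 (SE; edgeR adjusted p = 0.122), Dhx58, at -0.21 ± 0.13 (adjusted p = 0.290), and Tap1, a peptide transporter for MHC class I, at -0.14 ± 0.14 (adjusted p = 0.515). The Ifit genes, whose products bind viral RNA, had log2 fold changes of -0.16 for Ifit1, -0.11 for Ifit2 and -0.18 for Ifit3. In CPM, 19 of the 42 members (45.2%) were lower in all Y665H than in all Y665F females, against 21.5% of all genes, and none was higher in all, against 6.62%. CPM uses library totals, whose ratio to TMM scaling differed here: with library totals the median over all genes moved from -0.03 to -0.18.

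Lymphocyte and macrophage genes were also lower in Y665H than in Y665F females. The summed level of the NK cell list was 25.9 to 31.9 CPM in Y665F and 4.85 to 5.91 CPM in Y665H females, and 11 of its 11 tested genes fell. Il2rb, a receptor chain for interleukin-2 and interleukin-15, changed by -2.58 ± 0.18 (log2, SE; edgeR adjusted p = 0.00105). The T cell list was at 39.0 to 56.3 against 11.3 to 44.4 CPM, with 5 of 13 genes lower, and the B cell list at 33.5 to 44.6 against 12.6 to 17.9 CPM, with 8 of 10 lower. The macrophage list was at 1290 to 2017 against 648 to 971 CPM, with 7 of 12 lower. The conventional dendritic cell list was at 49.8 to 74.3 against 30.3 to 36.5 CPM, with 5 of 7 lower. The adipocyte list lay the other way, at 14867.4 to 23762.5 CPM in Y665F and 26003.0 to 31771.8 CPM in Y665H females. None of these lists had a gene at 0 throughout a group. The list for plasmacytoid dendritic cells, which make type I interferon, was at 131 to 156 against 130 to 153 CPM. Of its 6 genes 4 were tested, and none was called at an edgeR adjusted p under 0.05. Siglech of this list averaged 1.05 CPM in Y665F and 1.31 CPM in Y665H females. The sum thus rests on other genes of the list, and whether these cells changed cannot be read from it. The part of any of these cell types in the members' differences was not tested. Skeletal muscle genes were at 70.6 to 200 CPM in Y665F and 56.8 to 2113 CPM in Y665H females. With their level as a covariate 6 members were called, all lower, against 672 of 15493 genes that fell. Leaving out 1 library gave 4 members without Y665H female 1, 5 without Y665H female 2, Y665F female 1 or Y665F female 4, and 6 to 11 without any of the others. Mx1 passed in all of these fits, and Usp18 in none of those that left out a library. Of the 8 fits that left out 1 library, Isg15 lost its call in 7, Oas1b in 4, and Oas3 and Gbp5 in 2 each. Oas2 and Iigp1 lost it in 1 each, and Gbp2 in none.

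In males the same comparison called 1 member, Oas2, which fell. This 1 of 42 (2.38%) compares with 0.901% of 15986 genes that fell and 1.03% called in either direction. Oas2 was at 16.6, 14.1, 20.4 and 18.6 CPM in Y665F males and at 7.05, 6.35, 5.68 and 10.4 CPM in Y665H males, with no overlap (-1.29 ± 0.20 log2 units, SE; edgeR adjusted p = 0.0284). The call was lost with any 1 of Y665F males 1, 2 and 3 or Y665H males 1, 2 and 3 left out. It was also lost with the epididymis level as a covariate and with the libraries above 100 CPM of the epididymis list left out. With the replicate number as a block it was lost too. The fold change stayed between -1.48 and -1.18 in every fit run for it.

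The median over the members was -0.34 in males, against -0.02 over all genes, and 36 of 42 were negative. At an unadjusted p under 0.05, 18 of the 42 members were lower and none higher, against 2879 of 15986 genes (18.0%) in either direction. DESeq2 called 12, all lower, and 1097 of 20791 genes in all. In CPM, 9 members (21.4%) lay below in all Y665H males, against 6.17% of all genes, and none above, against 6.29%. These were Mx1, Oas1b, Oas2, Oasl1, Ifi35, Usp18, Irf7, Dhx58 and Tap1. Usp18 was at 11.3, 8.84, 11.6 and 11.4 CPM in Y665F males and at 8.11, 6.14, 6.47 and 7.30 CPM in Y665H males (-0.67 ± 0.13 log2 units, SE; edgeR adjusted p = 0.0590). Tap1 was at 74.6, 73.1, 68.0 and 64.9 CPM against 53.6, 43.4, 37.9 and 56.5 CPM (-0.61 ± 0.13 SE, edgeR adjusted p = 0.0692). Irf7, the factor that amplifies type I interferon production, was at -0.35 ± 0.08 (SE, edgeR adjusted p = 0.0843).

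The guanylate-binding proteins and immunity-related GTPases varied more among males. Gbp2 was at 101, 111, 74.3 and 51.9 CPM in Y665F males and at 102, 67.0, 64.5 and 98.9 CPM in Y665H males, and Iigp1 was at 61.0, 59.7, 41.1 and 30.1 against 49.8, 25.0, 20.6 and 59.1 CPM. The groups overlapped for both. In Y665H males, libraries 1 and 4 were the high ones for these genes, and they were also the high ones for the T cell list (31.8 and 39.5 CPM against 15.5 and 18.1) and the NK cell list (13.3 and 19.7 CPM against 4.37 and 5.50). The part of these cells was not tested. The difference between the sexes in Y665H against Y665F was tested on 16 libraries, and no member was called (0.868% of 16481 genes). At an unadjusted p under 0.05 there were 4 of the 42 members, against 2528 of 16481 genes (15.3%). DESeq2 called 1 member and 675 of 21370 genes, and the smallest edgeR adjusted p was 0.0787, for Irf1.

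**Figure D4:**
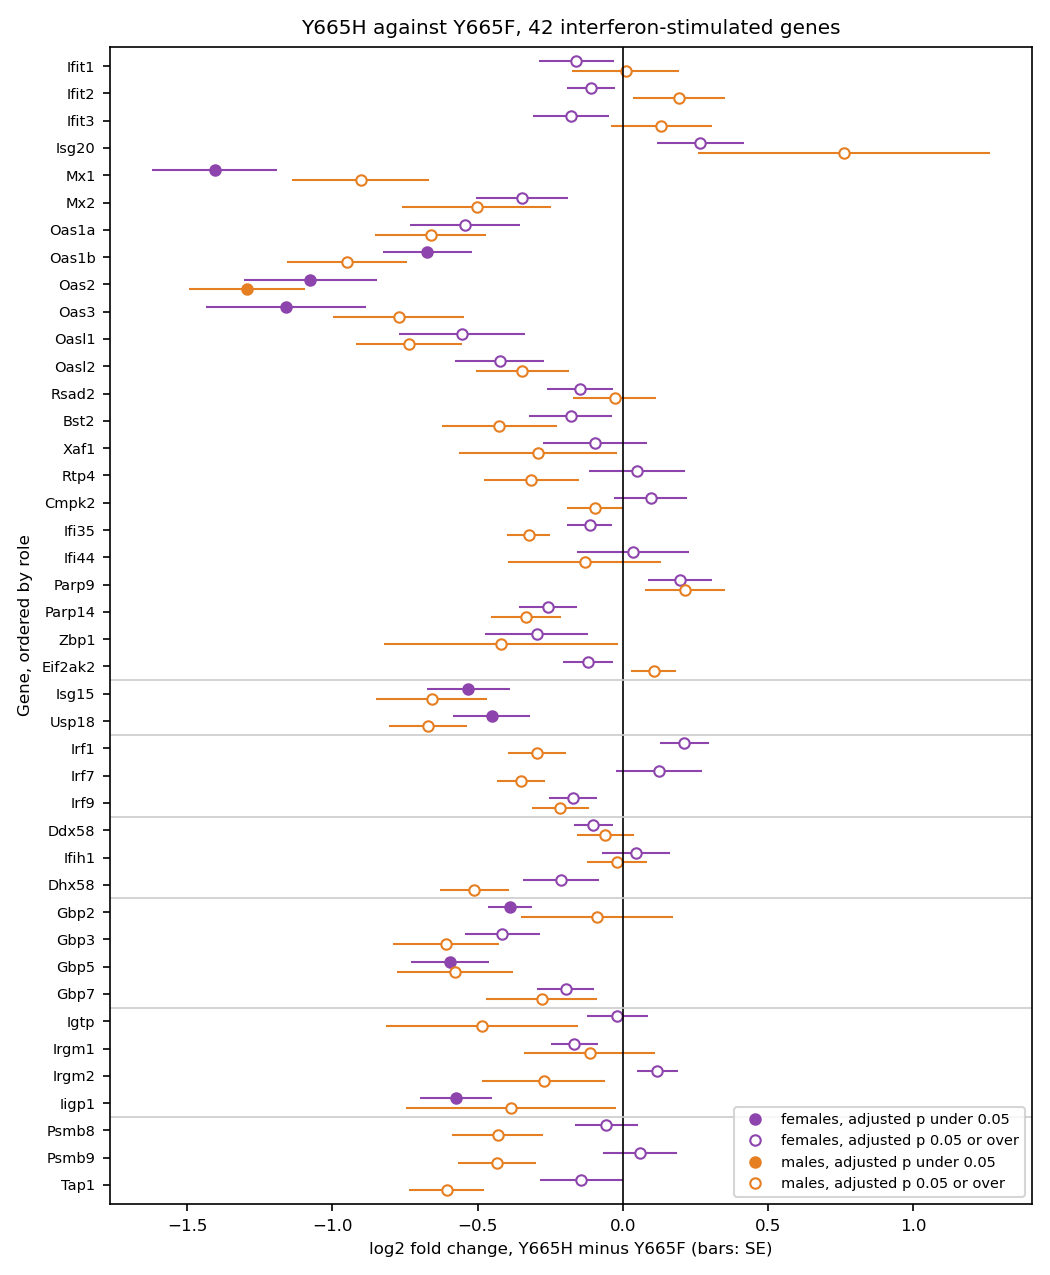
Log2 fold change of Y665H against Y665F for the 42 members, ordered by role, in females (purple) and males (orange), with SE bars, filled where the edgeR adjusted p was under 0.05. Of the members, 32 lie below 0 in females and 36 in males, and Oas2 is filled in both.

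Against WT, Y665F females had 1 member called, Iigp1, which rose. It was at 32.2, 30.1, 34.6 and 35.2 CPM in the WT females, and at 46.2, 53.7, 57.5 and 56.0 CPM in Y665F females, with no overlap (0.56 ± 0.08 log2 units, SE; edgeR adjusted p = 0.0196). This 1 of 42 (2.38%) is near the 2.31% of 15642 genes that rose, and 3.33% were called in either direction. The median over the members was 0.05, against 0.02 over all genes, and 25 were positive and 17 negative. With library totals the median over all genes was 0.15, and the split was 31 positive and 11 negative. The call was lost without WT female 1, 2 or 4, without Y665F female 4, with all 24 libraries fitted and with the muscle covariate. With that covariate none of the 15642 genes was called.

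In CPM, every library of Y665F females was above every WT female for all 4 guanylate-binding protein genes, Iigp1, the 3 antigen processing genes, Mx1 and Parp14, which is 10 of 42 (23.8%) against 19.9% of all genes. Gbp2 had a log2 difference of 0.31 ± 0.09 (SE; edgeR adjusted p = 0.0889) and Psmb8, a subunit of the immunoproteasome, 0.38 ± 0.12 (adjusted p = 0.104). Ifit1 lay the other way, at 7.38, 9.07, 8.39 and 11.0 CPM in WT and 6.74, 6.06, 6.87 and 7.10 CPM in Y665F females (-0.56 ± 0.14 SE, edgeR adjusted p = 0.0700). It was the only member below WT in all 4 libraries (2.38%, against 2.96% of all genes). Irf7, at -0.38 ± 0.21, Ddx58, at -0.13 ± 0.08, and Isg15, at -0.35 ± 0.28, led their roles without passing the test (edgeR adjusted p = 0.283, 0.310 and 0.440). The T cell list was at 11.8 to 15.5 CPM in WT and 39.0 to 56.3 CPM in Y665F females, with 11 of 13 genes higher, and the NK cell list at 9.92 to 13.7 against 25.9 to 31.9 CPM, with 6 of 11 higher. Their part was not tested.

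Y665H females had 1 member called against WT, Ifit1, which fell. It was at 4.11, 6.12, 5.91 and 5.59 CPM, below all 4 WT females, with a log2 difference of -0.71 ± 0.16 (SE; edgeR adjusted p = 0.0468). This 1 of 42 (2.38%) compares with 1.8% of 15469 genes that fell, and 3.34% were called in either direction. The median over the members was -0.24, against 0.00 over all genes, and 32 of 42 were negative. At an unadjusted p under 0.05, 15 of the 42 members were lower and 4 higher, against 3679 of 15469 genes (23.8%) in either direction. DESeq2 called 7, all lower, and 1760 of 20313 genes in all. The Ifit1 call was lost without any 1 library other than WT female 3, without which 5 members were called. It was also lost with library totals, with no filter, with all 24 libraries fitted and with the replicate number as a block.

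In CPM, 6 members (14.3%, against 6.81% of all genes) were below WT in all Y665H females, namely Ifit1, Mx1, Mx2, Oas1b, Oasl1 and Xaf1. Mx1 was at 2.09, 2.02, 2.9 and 2.98 CPM in WT females, above the 1.08 to 1.68 CPM of Y665H females (-0.73 ± 0.20 log2 units, SE; edgeR adjusted p = 0.0787). Isg15 was at 6.10, 7.18, 3.6 and 9.83 CPM in WT females and overlapped with Y665H (-0.88 ± 0.27 SE, edgeR adjusted p = 0.104). Irf1 was the 1 member above WT in all 4 libraries (2.38%, against 6.45%), at 70.6 to 88.5 against 49.0 to 69.9 CPM (0.33 ± 0.11 SE, edgeR adjusted p = 0.129). The NK cell list was at 4.85 to 5.91 CPM in Y665H females against 9.92 to 13.7 CPM in WT, with 5 of 11 genes lower. The T cell list lay the other way, with 12 of 12 tested genes positive, a median of 0.47 and none called. Its sums were 11.3 to 44.4 CPM in Y665H females, highest in Y665H female 4, and 11.8 to 15.5 CPM in WT. The part of either was not tested.

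In males neither mutation gave a called gene against WT, among members or elsewhere (0.0% of 16240 genes for Y665F and 0.0% of 16406 for Y665H). For Y665F, 39 of the 42 members were nevertheless on the positive side, with a median of 0.50 against -0.04 over all genes. At an unadjusted p under 0.05, 24 of the 42 members were higher and 1 lower, against 2772 of 16240 genes (17.1%) in either direction. The smallest edgeR adjusted p among the members was 0.117. DESeq2 called 16 members (15 higher) and 1141 of 20289 genes, and edgeR fitted on all 24 libraries called 20 members (19 higher) and 2261 of 17157 genes. In CPM, 19 members (45.2%) were above WT in all 4 Y665F males and none was below, against 5.59% and 3.26% of all genes. On simulated counts for this comparison, 100 of 16240 genes were changed 2-fold and 100 changed 4-fold. The test recovered 18% and 57% of these. The changed genes were picked above a floor of counts, and all genes were drawn independently. Libraries here moved together, so these shares need not hold for the members.

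Oas2 was at 7.05, 4.76, 9.81 and 7.73 CPM in the WT males, and at 16.6, 14.1, 20.4 and 18.6 CPM in Y665F males (1.29 ± 0.24 log2 units, SE; edgeR adjusted p = 0.117). Tap1 was at 49.9, 40.1, 47.7 and 36.6 against 74.6, 73.1, 68.0 and 64.9 CPM (0.73 ± 0.14 SE, edgeR adjusted p = 0.120). Igtp was at 13.0, 16.9, 16.1 and 12.2 against 28.7, 36.6, 25.4 and 20.1 CPM (0.99 ± 0.22 SE, edgeR adjusted p = 0.148). None of these groups overlapped. Gbp3, at 29.0, 12.4, 22.8 and 18.7 against 49.4, 52.7, 41.99 and 32.4 CPM, had a log2 difference of 1.14 ± 0.30 (SE; edgeR adjusted p = 0.185). Irf1, at 0.46 ± 0.13, Usp18, at 0.45 ± 0.17, and Ddx58, a sensor of viral RNA, at 0.23 ± 0.11, led the other roles (edgeR adjusted p = 0.219, 0.256 and 0.305). In the libraries under 100 CPM of the epididymis list, which include 1 WT and 2 Y665F males, the median over the members was 0.48. Over all genes it was 0.04 there. With the epididymis level as a covariate the median over the members was 0.39, against -0.001 over all genes, and no gene was called. The T cell list was at 17.8 to 27.9 CPM in WT and 46.7 to 102 CPM in Y665F males. The NK cell list was at 12.1 to 127 CPM in WT males, highest in WT male 2, and at 40.0 to 53.8 CPM in Y665F males. The macrophage list was at 707 to 1237 against 1198 to 1828 CPM, so these 2 lists overlapped between the groups. The part of any of these cells was not tested.

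For Y665H against WT males the median was 0.20 against -0.05 over all genes, and 30 of 42 members were positive. At an unadjusted p under 0.05, 5 of the 42 members were higher and 1 lower, against 1874 of 16406 genes (11.4%) in either direction. DESeq2 called no member and 119 of 20475 genes. Only Ifit2 lay above WT in all 4 libraries (2.38%, against 2.43% of all genes) and none below (1.18%). The leading members by role were Gbp2 at 0.80 ± 0.26, Iigp1 at 0.88 ± 0.36, Parp9 at 0.61 ± 0.23, Isg15 at -0.58 ± 0.21, Irf9 at -0.51 ± 0.24, Ifih1 at 0.43 ± 0.22 and Psmb9 at 0.28 ± 0.15 (log2, SE). All had an edgeR adjusted p of 0.402. With the epididymis level as a covariate the median fell to 0.07, and with the libraries over 100 CPM of that list left out it was 0.09.

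In WT males against WT females, 18 members fell and 1 rose. The 18 are 42.9% of the members, against 5.95% of 15865 genes that fell, and the 1 is 2.38%, against 7.15% that rose. The median over the members was -0.54, against 0.04 over all genes, and 38 were negative. The adipocyte list moved the same way, with 12 of 12 genes negative, a median of -0.72 and none called, and summed levels of 20844 to 28965 CPM in WT females and 8853 to 23493 CPM in WT males. The epithelium list was positive for 10 of 10 genes, with 4 called higher, at 59.8 to 179 CPM in WT females and 79.6 to 1603 CPM in WT males. The part of either in the members' differences was not tested. The members that fell were 11 antiviral effectors, 3 guanylate-binding proteins, 3 immunity-related GTPases and Psmb9. No RNA sensor, no interferon regulatory factor and neither Isg15 nor Usp18 was called. In CPM, 17 members (40.5%, against 7.01% of all genes tested and 6.86% of those averaging 1 CPM or more) were lower in all WT males than in all WT females.

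Irgm2 (chr11:58199618-58222782), which regulates the other GTPases of its family, was at 46.2, 43.2, 42.4 and 51.8 CPM in the WT females, and at 33.0, 27.4, 29.9 and 27.5 CPM in WT males (-0.78 ± 0.12 log2 units, SE; edgeR adjusted p = 0.0109). Its exons share 162 bases with those of Igtp, so reads there may have been split or dropped. Rtp4 (chr16:23520291-23614222), an inhibitor of flavivirus replication, was at 12.9, 16.1, 11.3 and 19.1 against 7.43, 5.66, 8.49 and 7.03 CPM (-1.20 ± 0.22 SE, edgeR adjusted p = 0.0165). Ifi44 was at 4.72, 4.59, 3.66 and 5.55 against 2.07, 1.34, 2.45 and 1.53 CPM (-1.46 ± 0.27 SE, edgeR adjusted p = 0.0175). All 3 were lower in every male.

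Oasl2, an oligoadenylate synthetase-like protein, had a log2 difference of -1.10 ± 0.20 (SE; edgeR adjusted p = 0.0177). Gbp7 was at 68.3, 59.8, 71.1 and 71.7 CPM in the WT females, and at 52.8, 25.2, 38.9 and 37.5 CPM in WT males (-0.95 ± 0.22 SE, edgeR adjusted p = 0.0296). The other guanylate-binding proteins that fell were Gbp3, by 1.09 on the log2 scale, and Gbp2, by 0.96 (edgeR adjusted p = 0.0333 and 0.0366). Iigp1 fell by 0.81 and Igtp by 0.56 on the log2 scale (edgeR adjusted p = 0.0433 and 0.0462). Psmb9, an immunoproteasome subunit encoded head to head with Tap1, was at 20.8, 16.2, 19.1 and 21.1 against 15.5, 12.5, 15.5 and 15.0 CPM (-0.54 ± 0.14 SE, edgeR adjusted p = 0.0382).

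The member that rose was Isg20 (chr7:78913424-78920396), an exonuclease that degrades single-stranded RNA. It was at 9.98, 9.05, 9.03 and 10.0 CPM in the WT females, and at 11.9, 92.8, 120 and 77.7 CPM in WT males (2.83 ± 0.57 log2 units, SE; edgeR adjusted p = 0.0223). WT males 2, 3 and 4 were far above WT male 1, and these 3 had epididymis lists of 14618, 3280 and 1219 CPM, against 1.30 CPM in WT male 1. Y665H male 3, with an epididymis list of 1604 CPM, had 53.0 CPM of Isg20, whereas Y665F male 4, with 963 CPM of the list, had 9.02 CPM. Irf9 had the same order of libraries in part, at 26.8, 63.2, 52.4 and 38.6 CPM in the WT males against 28.0 to 37.8 CPM in WT females, and was not called (0.34 ± 0.25 SE, edgeR adjusted p = 0.362). Without WT males 2, 3 and 4 the log2 fold change of Isg20 was 0.24, with the epididymis level as a covariate it was 0.98, and it was called in neither fit. Its call was also lost without any 1 of the WT females or WT male 3. The part of epididymis tissue in the values of Irf9 was not tested.

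WT males 1, 2, 3 and 4 were below all 4 WT females for 27, 36, 21 and 30 of the 42 members. Of 15126 genes averaging 1 CPM or more, they were below for 3002, 4372, 3184 and 2940 (19.8, 28.9, 21.0 and 19.4%). With WT males 2, 3 and 4 left out, 1 male library remained, and the median over the members was -0.45, against -0.01 over all genes. With the epididymis level as a covariate no member was called, against 171 of 15865 genes. The median over the members was then -0.43, against 0.01 over all genes. With 1 female left out, 0 members were called without library 4, 1 without library 1, 2 without library 2 and 6 without library 3. With 1 WT male left out, 7 were called without library 3, 9 without library 4, 14 without library 2 and 26 without library 1. Skeletal muscle genes were at 136 to 1184 CPM in the WT females, and at 35.3 to 60.8 CPM in WT males, and their part was not tested.

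**Figure D5:**
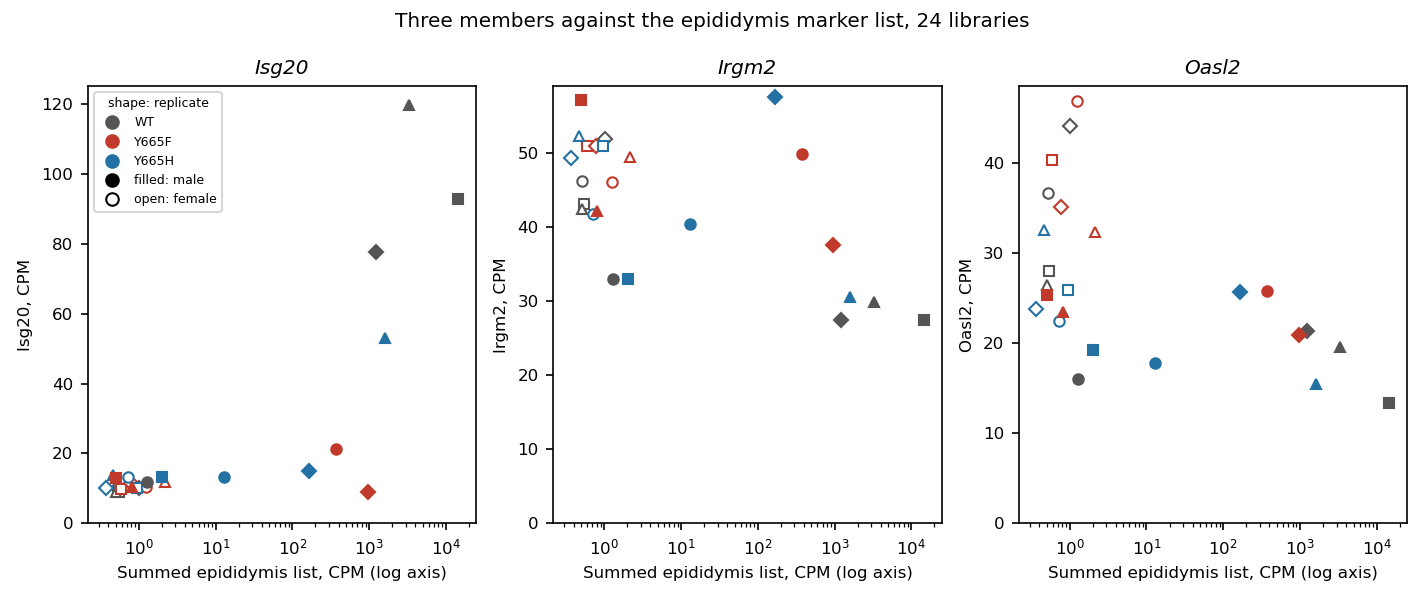
CPM of Isg20, Irgm2 and Oasl2 (y axes) against the summed CPM of 10 epididymis genes (log x axis) in the 24 libraries, coloured by genotype, filled for males and open for females, with the replicate as the shape. The 4 highest values of Isg20 are in male libraries whose epididymis list is at 1219 to 14618 CPM, and Irgm2 and Oasl2, drawn because they were called lower in WT males, are at 27.4 to 33.0 and 13.3 to 21.4 CPM in the WT males.

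In the other genotypes the sexes were compared by overlap alone. In Y665F, 9 members (21.4%, against 14.2% of genes averaging 1 CPM or more) were lower in all males than in all females, among them Ifit1, Ifit2, Ifit3, Oas1a and Oasl2, and 2 (4.76%, against 11.6%), Xaf1 and Tap1, were higher in all males. In Y665H, 2 members (4.76%, against 9.12%), Irf7 and Psmb8, were lower in all males and none was higher, against 24.5%. Whether each mutation differed from WT unequally in males and females was tested on 16 libraries. edgeR called no member for Y665F (0.0% of 16732 genes) or for Y665H (0.0119% of 16827). For Y665F, 22 of the 42 members had an unadjusted p under 0.05, against 3645 of 16732 genes (21.8%). DESeq2 called 6 members and 1193 of 21046 genes. For Y665H, 14 of the 42 members had such a p, against 3079 of 16827 genes (18.3%). DESeq2 called 1 member and 717 of 21127 genes. Without WT male 1, edgeR called 9 and 8, and the calls over all genes in these fits are not given here. That library had 1.30 CPM of the epididymis list, and the WT males that remained had 1219 to 14618 CPM. On all 16 libraries the medians over the members were 0.51 and 0.42, against -0.06 and -0.09 over all genes. A positive value means that the difference of mutant from WT was higher in males than in females. Without the libraries above 100 CPM of the epididymis list, which left 1 WT male, the medians were 0.49 and 0.35, against 0.01 and 0.05 over all genes.

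Of the genes that send and receive the interferon signal, 20 interferon genes were listed and 1 passed the filter on low counts. Ifnb1, interferon beta, had 1 count in all WT females, 1 in all Y665H males and 0 in each of the other groups. Ifng, interferon gamma, had 6, 16 and 5 counts in all WT, Y665F and Y665H females, and 6, 34 and 13 in all WT, Y665F and Y665H males. These counts were too low for the test. A count of 0 in a library allows up to 0.0726 to 0.143 CPM, taking 3 counts as the limit, and covers counting error only.

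Among the receptor and JAK-STAT genes described here, Ifngr2 and Tyk2 fell in Y665H against Y665F females. Ifngr2 fell, from 35.4 ± 1.49 to 23.1 ± 2.46 CPM (SD, n = 4; -0.47 ± 0.09 SE, edgeR adjusted p = 0.0107), and it also fell against WT females (-0.49 ± 0.10 SE, edgeR adjusted p = 0.0428). Tyk2 fell in both sexes, by 0.45 in females and 0.63 in males on the log2 scale (edgeR adjusted p = 0.0100 and 0.0126). Stat2 fell in males, from 66.6 ± 3.87 to 51.0 ± 4.44 CPM (-0.44 ± 0.07 SE, edgeR adjusted p = 0.0314), and had -0.27 ± 0.09 in females (adjusted p = 0.0791). The receptor genes Ifnar1, at 76.7 to 93.6 CPM, Ifnar2, at 52.0 to 63.5 CPM, and Ifngr1, at 134 to 209 CPM (ranges of group means), were called in none of the comparisons between genotypes.

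Of 16 nucleic acid sensing genes tested, 4 fell and 1 rose in Y665H against Y665F females and 2 fell in males. Of all genes tested, 8.59% fell and 8.77% rose in females, and 0.901% fell in males. Irf5, a factor downstream of Toll-like receptors, fell by 1.05 in females and 0.81 in males on the log2 scale (edgeR adjusted p = 0.00233 and 0.0243), and the kinase gene Ikbke by 0.56 and 0.60 (edgeR adjusted p = 0.00455 and 0.0284). Irf8 fell by 0.76 in females, and Mavs, the adaptor of the RNA sensors, rose by 0.43 on the log2 scale (edgeR adjusted p = 0.00217 and 0.0333). None was called against WT in either sex.

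A wider list of 70 tested interferon-stimulated genes outside the 42 had 14 lower and 3 higher in Y665H against Y665F females, with a median of -0.19. Of all genes tested there, 8.59% fell and 8.77% rose. Slfn2, which keeps lymphocytes quiescent, fell by 1.30 on the log2 scale, Gbp4 fell by 0.68 and Gbp2b had a log2 fold change of -2.32 (edgeR adjusted p = 0.00148, 0.00239 and 0.00642). Gbp10 rose by 0.56, Psme2, a proteasome activator subunit, by 0.22 and Cd274, which encodes the immune checkpoint ligand PD-L1, by 0.41 on the log2 scale (edgeR adjusted p = 0.0375, 0.0438 and 0.0483). In males 2 of the list fell, against 0.901% of all genes. Nlrc5, the transactivator of MHC class I genes, fell by 0.84 and Uba7, the activating enzyme of Isg15, by 0.68 on the log2 scale (edgeR adjusted p = 0.0314 and 0.0470). Against WT females, 7 rose and 1 fell in Y665F, and 2 fell in Y665H. Of all genes, 2.31% rose and 1.02% fell in Y665F, and 1.8% fell in Y665H. Gbp4 rose by 0.76, Slfn2 by 0.88 and Ifi47 by 0.69 in Y665F (edgeR adjusted p = 0.00978, 0.00978 and 0.0173), whereas Ifi27l2a fell by 1.30 in Y665F and by 0.97 in Y665H on the log2 scale (edgeR adjusted p = 0.0297 and 0.0287). In Y665H, Cxcl9, a chemokine for T cells, was the other that fell, by 0.39 on the log2 scale (edgeR adjusted p = 0.0469). In WT males against WT females 16 fell and none rose, against 5.95% and 7.15% of all genes. Gbp10 had a log2 fold change of -3.05, H2-D1, an MHC class I gene, -0.66, and Lgals3bp -0.78 (edgeR adjusted p = 0.00827, 0.0135 and 0.0187).

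Of 8 genes that restrain interferon signalling, 4 fell in Y665H against Y665F females, against 8.59% of all genes. Ptpn6, a phosphatase of blood cells, fell by 1.02, Samhd1 by 0.51 and Pias1 by 0.28 on the log2 scale (edgeR adjusted p = 0.00148, 0.0157 and 0.0213). Ptpn6 rose by 0.78 in Y665F against WT females (edgeR adjusted p = 0.0221), and Tnfaip3 fell by 0.92 in Y665H against WT females (edgeR adjusted p = 0.0141). In WT males against WT females, Ptpn6 rose by 0.90 (edgeR adjusted p = 0.0175). None was called in either mutant against WT in males.

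Some member counts depend on near copies or overlapping genes. Ifit3 has a copy in Ifit3b, Oas1a in Oas1g and Mx2 in Mx1, each at least 95% alike over at least 500 bases, and 18 members share exon bases with another annotated gene. Their values are uncertain to that extent.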

How the data were processed

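Total RNA from 24 adipose libraries was sequenced as read pairs after removal of ribosomal RNA, with a stranded kit, per the labels' protocols. The deposited files hold the authors' raw read counts per gene symbol. Per the submitters' processing notes the tools were FastQC 0.11.9, Trimmomatic 0.36, STAR, SAMtools 1.9, Picard 2.9.2 and HTSeq 0.9.1, with build mm10. The annotation and the strand setting are not given in the sources used here. The 5 entries that name no gene (24.8 to 39.7% of all counts) were left out. No 2 libraries of a group were alike within sampling noise.

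The counts were tested with edgeR 4.0.16 (limma 3.58.1, R 4.3.3), quasi-likelihood F test, TMM scaling, filterByExpr and Benjamini-Hochberg adjustment over all genes, each pair of groups on its 8 libraries and each interaction on 16. SE is the size of the log2 fold change over the square root of F. All 42 members passed the filter in every comparison. The procedure was tested on simulated data. Alternatives were DESeq2 1.42.0, other scalings, no filter, all 24 libraries, a replicate block, covariates and each library left out. Fitting without the libraries above 100 CPM of epididymis genes was chosen after seeing the data. Gene positions are from GENCODE vM21 and copies were found with blastn 2.17.0. The members, the lists and the rule for naming genes were chosen with earlier results of these data known. The rule names every called member where at most 10 were called, otherwise the 3 with the smallest p per direction and role, the leading member of each role where none was called, and at most 3 called genes per other list, direction and comparison, by smallest p. Genes named beyond it were chosen after their values were seen. Of the receptor and JAK-STAT list, 1 gene is not reported here.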

Additional observations from a re-analysis of the deposited data

Results flagged for a closer look

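Among 252 sets of 4 libraries (42 members in 6 groups), 12 held a library far from the other 3 (4.76%), and chance flags about 1 in 20 groups. In 6 sets the library was high. Isg20 was at 53.0 CPM in Y665H male 3, against at most 14.9 in the others, and Rsad2 at 56.8 CPM in WT male 4, against at most 13.6. Xaf1 was at 11.8 CPM in Y665H male 4, Oas1a at 14.4 CPM in Y665F female 1, Oas3 at 4.60 CPM in WT female 4 and Zbp1 at 4.63 CPM in WT male 3. In 6 sets the library was low. Mx1 was at 1.08 CPM and Rsad2 at 12.6 CPM in Y665H female 1, and Usp18 at 8.84 CPM in Y665F male 2. Ifih1 was at 31.6 CPM in WT female 2, Psmb8 at 37.3 CPM in Y665H female 2 and Psmb9 at 12.5 CPM in WT male 2. WT male 4, the library with the high Rsad2, also had 350 CPM of the erythroid list, against 18.7 to 29.6 CPM in the other WT males, and the part of such cells was not tested.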

How the results depend on the processing

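The number of members called depended on the settings, and the calls over all genes are in brackets. DESeq2 called 4 in Y665F and 7 in Y665H against WT females (2047 of 20391 and 1760 of 20313 genes). It called 16 in Y665F against WT males and 12 in Y665H against Y665F males (1141 of 20289 and 1097 of 20791). In the differences between the sexes it called 6 for Y665F against WT (1193 of 21046). It called 1 there for Y665H against WT (717 of 21127) and 1 for Y665H against Y665F (675 of 21370). Library totals gave 5 in Y665F (1164 of 15642) and 0 in Y665H against WT females (468 of 15469). They gave 15 in Y665H against Y665F females (3205 of 15493), and no filter gave 0 in Y665H against WT females (415 of 20341). Library totals moved the median over all genes by over 0.1 in Y665F against WT females (0.02 to 0.15), Y665H against Y665F females (-0.03 to -0.18), WT males against WT females (0.04 to 0.22) and the sex differences of Y665F against WT (-0.06 to -0.25) and of Y665H against Y665F (0.00 to 0.21). In the last of these the median over the members moved from -0.14 to 0.07. Fitting all 24 libraries gave 0 and 0 in Y665F and Y665H against WT females (512 and 250 of 17157 genes). It gave 20 in Y665F against WT males (2261) and 30 in WT males against WT females (5987). In Y665H against Y665F females and males it gave 5 and 4 (2164 and 400). The muscle covariate gave 0 in Y665F against WT females (0 of 15642). The epididymis covariate gave 0 in Y665H against Y665F males (79 of 15986) and 0 in WT males against WT females (171 of 15865). Leaving out libraries above 100 CPM of that list gave 0 in Y665H against Y665F males (0 of 15865). In WT males against WT females it left 1 male library, with a median over the members of -0.45. The causes were not tested. The epididymis covariate was not run for the differences between the sexes.

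With 1 library left out, the numbers called were 0 to 1 in Y665F and 0 to 5 in Y665H against WT females, 0 to 2 in Y665F and 0 in Y665H against WT males, 4 to 11 and 0 to 2 in Y665H against Y665F females and males, and 0 to 26 in WT males against WT females. They were 0 to 9, 0 to 8 and 0 for the differences between the sexes. The calls over all genes in these fits are not given here. Reversed directions were few and concerned values that were not called. Irf9 in Y665H against WT males was at 0.062 with the epididymis covariate and 0.049 without the libraries above 100 CPM, and its sex difference for Y665H against WT was 0.31 without them. The sex difference of Psmb8 for Y665H against WT was 0.036 without WT female 2, 0.095 without WT male 1, 0.0085 without Y665H female 1 and 0.023 without Y665H male 3.

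Replicate numbers did not pair the libraries: correlations of same-numbered libraries ran from -0.35 to 0.71, and in no comparison were all above 0.1. With the replicate number as a block, 0 members were called in Y665H against WT females (32 of 15469 genes). There were 4 in Y665H against Y665F females (1583 of 15493) and 0 in Y665H against Y665F males (0 of 15986). WT males against WT females had 6 (825 of 15865). The block left 1 in Y665F against WT females (676 of 15642) and 0 in the others. At most 3 of 4 libraries correlated best with their own number, in WT males against WT females.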
